A study of Mus musculus with 16 samples.

Results

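The genes described here are 10 receptors for extracellular nucleotides in the nuclear RNA of the mouse colon: the P2X receptors P2rx1 to P2rx7 and the P2Y receptors P2ry1, P2ry12 and P2ry14. They were taken by name as members of these receptor families, with earlier results of these data known, and each matched 1 Ensembl identifier among the 51912 genes of the count table. The table covers 4 groups of 4 libraries from the colon of specific pathogen-free C57BL/6 mice: neuronal nuclei after agonist, neuronal nuclei after corn oil, non-neuronal nuclei after agonist and non-neuronal nuclei after corn oil. All mice carried an AAV9 vector in which a CaMKII promoter drives a nuclear-envelope EGFP, given 5 weeks before nuclei were taken. Neuronal nuclei are therefore the EGFP-positive ones, and neurons in which the vector or its promoter was silent would be counted with the EGFP-negative, non-neuronal nuclei. The agonist, 3-methylcholanthrene, binds the aryl hydrocarbon receptor (AhR), a ligand-activated transcription factor. It was injected intraperitoneally 14 hours before isolation, and corn oil was the control injection. The sources used here give neither the age of the mice nor the dose. Libraries of 1 group may be separate mice or pools, since no source used here says which, so p-values measure only the spread between these libraries.

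P2X receptors are trimeric channels that open when ATP binds and let cations in. P2Y receptors are G protein-coupled receptors for ATP, ADP, UDP or UDP-sugars. In the gut wall ATP is a fast excitatory transmitter between enteric neurons, acting on P2X channels, and a purine transmitter relaxes the muscle through P2Y1, whose signal opens small-conductance potassium (SK) channels. Ectonucleotidases on cell surfaces break the released nucleotides down to adenosine.

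The libraries held between 2663818 and 4902344 expected counts. Mitochondrially encoded genes took 1.77% to 6.11% of the counts in neuronal libraries and 10.3% to 42.8% in non-neuronal ones, and non-neuronal agonist libraries 1 and 2 were above 30%. The labelled cell types were compared with their markers. The summed level of 7 neuronal marker genes (Elavl4, Ret, Snap25, Uchl1, Tubb3, Syt1 and Prph) was 1787 to 3226 CPM (counts relative to library size, scaled by TMM) in neuronal agonist and 49.0 to 301.9 CPM in non-neuronal agonist libraries. After corn oil it was 1678 to 2142 CPM in neuronal and 103.0 to 359.3 CPM in non-neuronal libraries. The summed levels of the glial, smooth muscle, interstitial cell, PDGFRA-positive cell and fibroblast, endothelial, macrophage and epithelial markers were higher in every non-neuronal library than in any neuronal one. In such bulk samples fewer cells of a type and less RNA per cell cannot be told apart.

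P2rx2 and P2ry14 had the highest levels per length of exon in neuronal corn oil libraries, and P2rx4, P2ry1 and P2rx7 led in non-neuronal corn oil libraries. Levels between genes are given here as CPM per kb of exon. In neuronal agonist libraries the order was P2rx2 (16.6 ± 7.99 CPM per kb, SD, n = 4), P2ry1 (7.45 ± 4.80), P2ry14 (6.17 ± 2.42), P2rx4 (4.64 ± 2.13), P2ry12 (3.76 ± 2.75), P2rx7 (2.98 ± 0.644) and P2rx3 (2.79 ± 5.12). Every pair of neighbours in that order overlapped. In neuronal corn oil libraries it was P2rx2 (17.3 ± 6.29 CPM per kb), P2ry14 (8.36 ± 1.72), P2ry1 (7.82 ± 0.761), P2rx4 (5.17 ± 2.18), P2ry12 (4.09 ± 1.77) and P2rx7 (1.69 ± 1.01). There P2rx2 stood clear of P2ry14, and P2rx7 of P2rx6 below it (0.464 ± 0.0653 CPM per kb), while the other neighbours overlapped. In non-neuronal agonist libraries the order was P2ry1 (14.8 ± 15.04 CPM per kb), P2rx4 (9.44 ± 2.68), P2rx7 (7.91 ± 5.04) and P2ry14 (4.70 ± 4.07). In non-neuronal corn oil libraries it was P2rx4 (14.1 ± 4.28 CPM per kb), P2ry1 (12.7 ± 4.70), P2rx7 (11.1 ± 5.45) and P2rx2 (6.52 ± 9.37). All neighbours in both non-neuronal orders overlapped.

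**Figure D1:**
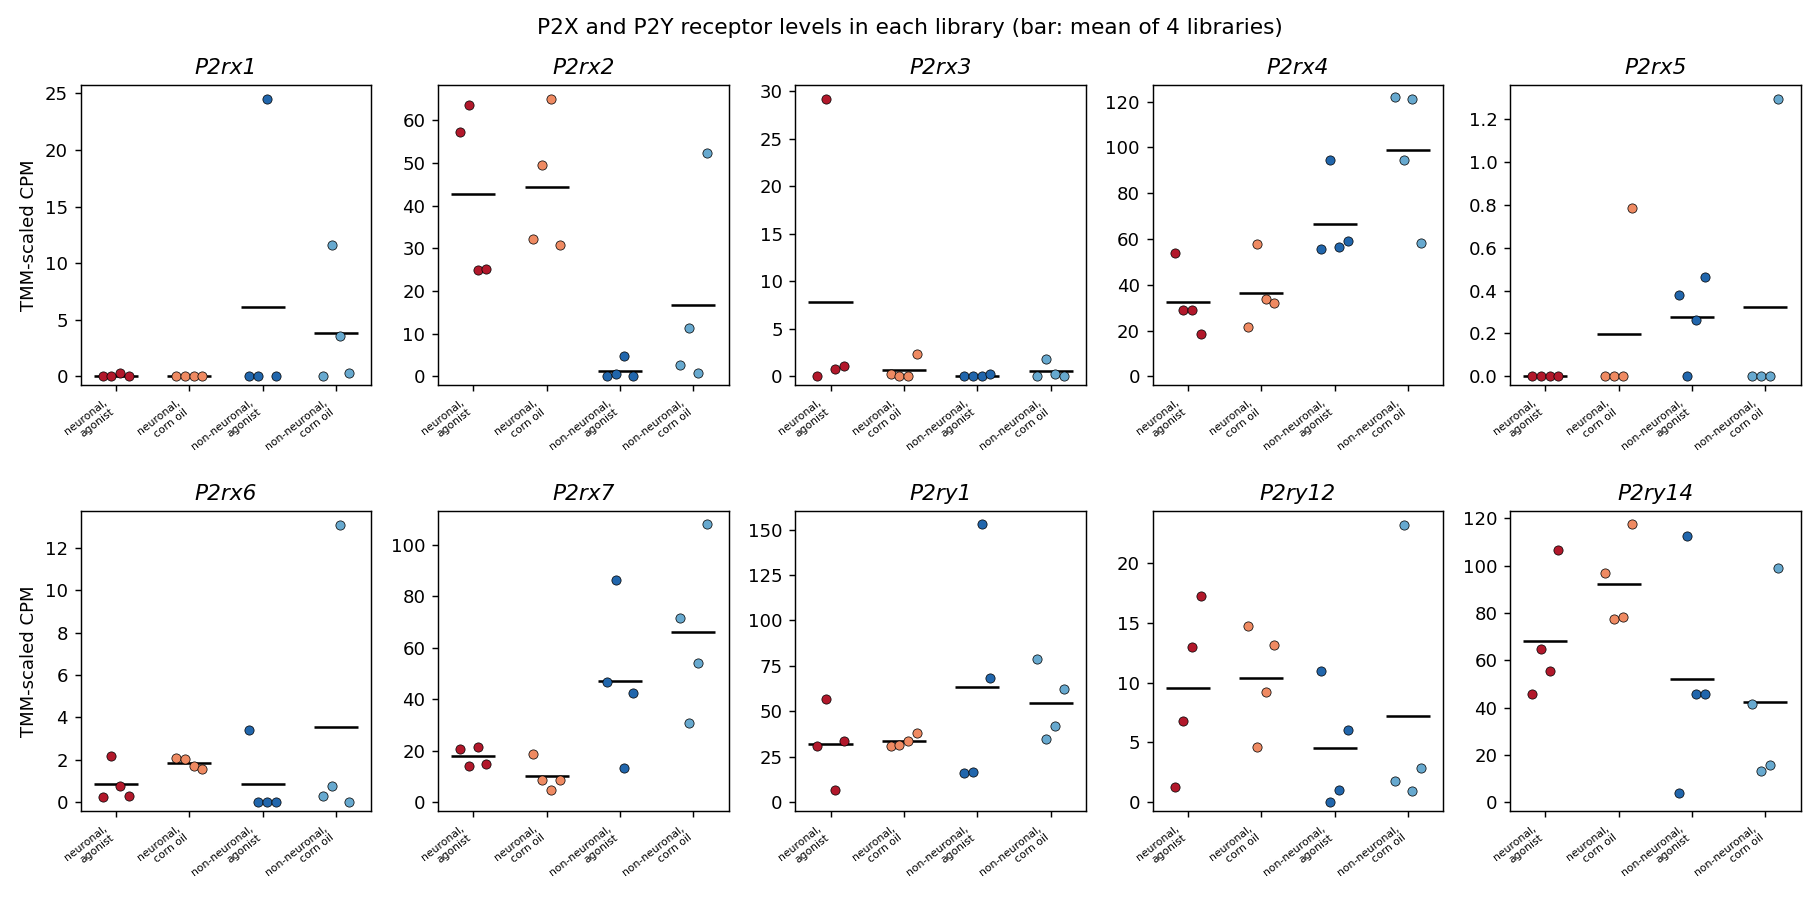
Level of each receptor (TMM-scaled CPM, linear axis from 0, its own range in each panel) in the 16 libraries, with neuronal groups left of non-neuronal ones and agonist left of corn oil. Points are libraries and bars are means of 4. P2rx2 lies at 24.9 to 65.1 CPM in all neuronal libraries, with a single non-neuronal corn oil library at 52.3 CPM, and after corn oil P2rx4 and P2rx7 run the other way.

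P2rx2 made up most of the summed P2X level in neuronal libraries, and P2rx4 and P2rx7 together did so on average in non-neuronal ones. Of the summed CPM per kb of the 7 P2X genes, P2rx2 made up 60.7% ± 5.66 in neuronal agonist libraries and 2.27% ± 4.14 in non-neuronal agonist libraries (SD, n = 4 each). After corn oil it made up 68.1% ± 8.67 in neuronal and 15.7% ± 19.2 in non-neuronal libraries. P2rx4 made up 18.2% ± 6.23 in neuronal agonist and 46.4% ± 6.67 in non-neuronal agonist libraries, and 20.6% ± 6.09 in neuronal corn oil and 44.3% ± 18.3 in non-neuronal corn oil libraries. P2rx7 made up 13.1% ± 6.40 in neuronal agonist and 38.4% ± 18.9 in non-neuronal agonist libraries, and 7.70% ± 5.95 in neuronal corn oil and 31.2% ± 9.80 in non-neuronal corn oil libraries. The P2rx2 shares of the 2 populations did not overlap under either treatment.

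Of the 10 receptors, 6 passed the filter on low counts in every comparison (P2rx2, P2rx4, P2rx7, P2ry1, P2ry12 and P2ry14). P2rx1, P2rx3, P2rx5 and P2rx6 passed in none, and they were tested only where the filter was left out. Tests below are edgeR quasi-likelihood F-tests fitted over all genes with Benjamini-Hochberg adjusted p-values, and a gene is called at an adjusted p under 0.05. Fold changes come from fits of the 8 libraries compared, so they need not equal ratios of the levels, which were scaled over all 16 libraries. Between neuronal and non-neuronal nuclei, 1 receptor was called after agonist, where 13.6% of 14065 genes were called. It was higher in neuronal nuclei, as were 6.67% of all genes, and no receptor was called lower, against 6.97% of all genes. After corn oil 2 receptors were called, where 25.4% of 15285 genes were called. Both were lower, as were 13.5% of all genes, and none was called higher, against 11.8% of all genes. The median log2 fold change of the 6 receptors tested was -0.31 after agonist and -0.0041 after corn oil, against -0.154 and -0.113 over all genes tested. Of the genes called after agonist, 48.9% were higher in neuronal nuclei. With libraries scaled by size alone that share was 67.2% and the median over all genes 0.427, while the 6 receptors kept their directions. The groups of libraries did not overlap for 2 receptors after agonist, where that held for 23.2% of the genes tested, and for 2 after corn oil, where it held for 31.8%.

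P2rx2 forms the ATP-gated channel known from enteric neurons, alone or together with P2X3 subunits. Its gene lies on chromosome 5 from 110339812 to 110343212 on the minus strand (GRCm38), in 7 exon blocks. Its level was 57.2, 63.6, 24.9 and 25.3 CPM in neuronal agonist libraries 1 to 4, against 0, 0.450, 4.70 and 0 CPM in the non-neuronal agonist libraries. Every neuronal library was above every non-neuronal one. A count of 0 allows up to 1.13 CPM in non-neuronal agonist library 1 and 0.695 CPM in library 4, counting error only. The log2 fold change, neuronal over non-neuronal, was 4.99 (SE 1.36, 95% interval 2.09 to 7.89, adjusted p = 0.0233), so P2rx2 was higher in neuronal nuclei after agonist. The call was lost without neuronal agonist library 2 (log2 fold change 4.74, adjusted p = 0.0686) and without the 2 libraries above 30% mitochondrial counts (4.25, adjusted p = 0.0858). Without non-neuronal agonist library 3, which held 18 of the 19 P2rx2 counts of its group, it was 8.06 (adjusted p = 0.00325), and with the replicate block 6.56 (adjusted p = 0.0086).

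After corn oil P2rx2 had 32.3, 49.5, 65.1 and 30.7 CPM in the neuronal libraries, against 2.66, 11.2, 0.893 and 52.3 CPM in the non-neuronal ones. The groups overlapped only through non-neuronal library 4, which held 202 of the 244 P2rx2 counts of its group. This gave a log2 fold change of 1.47 (SE 0.874, 95% interval -0.42 to 3.35, adjusted p = 0.257), which was not called. Without that library it was 3.29 (adjusted p = 0.00575). The library also had the highest sum of neuronal markers among the 4 non-neuronal corn oil libraries, 359.3 CPM. Its P2rx2 level was 14.55% of its neuronal marker sum, against 1.43% to 3.53% in the 4 neuronal corn oil libraries. Non-neuronal corn oil library 2 stood at 10.1%, and libraries 1 and 3 at 1.77% and 0.867%. The part of these neuronal transcripts in the P2rx2 values was not tested.

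**Figure D2:**
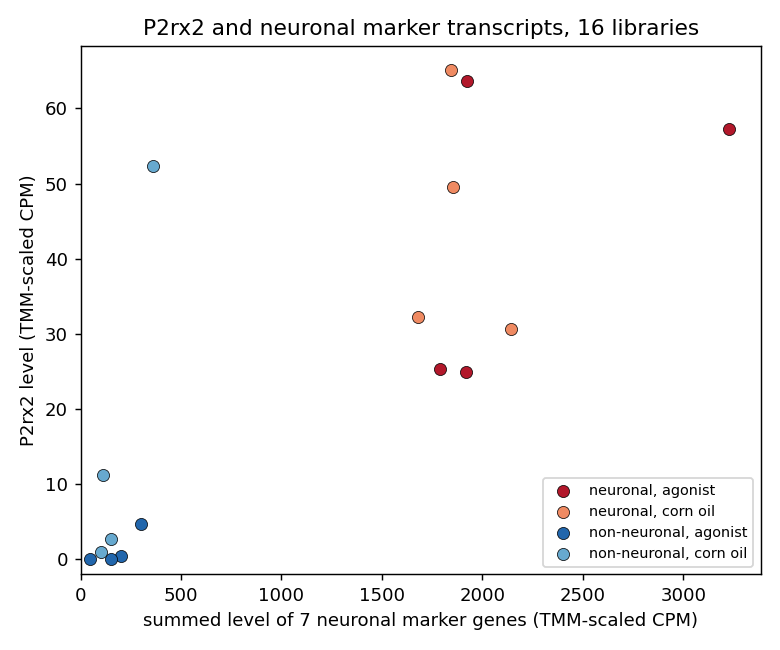
P2rx2 level against the summed level of 7 neuronal marker genes (both TMM-scaled CPM, linear axes) in the 16 libraries, coloured by group. All neuronal libraries lie at 1678 CPM of markers or more on the right, and the non-neuronal corn oil library with 52.3 CPM of P2rx2 lies far left of them at 359.3 CPM of markers.

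P2rx4 and P2rx7 are neighbours on chromosome 5 and were the receptors called lower in neuronal nuclei after corn oil. P2rx4 encodes a widely expressed ATP-gated channel, and P2rx7 the channel that needs high ATP and is best known from macrophages, where it starts inflammasome signalling. P2rx7 spans 122643911 to 122691432 and P2rx4 122707544 to 122729738, both on the plus strand (GRCm38). The bases before the annotated start of each gene are shown because these adjacent genes moved in the same direction. They are RefSeq sequence on GRCm38.p6, plus strand, chr5:122707294-122707543 for P2rx4 and chr5:122643677-122643910 for P2rx7, cut where the exons of the gene begin. Capitals would mark the core of the AhR binding motif, GCGTG on the shown strand or CACGC for the other strand, and there are none in these windows.
P2rx4: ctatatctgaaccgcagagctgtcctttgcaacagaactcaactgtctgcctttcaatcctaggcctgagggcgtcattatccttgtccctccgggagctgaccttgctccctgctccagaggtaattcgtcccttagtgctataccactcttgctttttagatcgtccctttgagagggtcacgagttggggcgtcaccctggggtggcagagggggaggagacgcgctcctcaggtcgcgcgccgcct
P2rx7: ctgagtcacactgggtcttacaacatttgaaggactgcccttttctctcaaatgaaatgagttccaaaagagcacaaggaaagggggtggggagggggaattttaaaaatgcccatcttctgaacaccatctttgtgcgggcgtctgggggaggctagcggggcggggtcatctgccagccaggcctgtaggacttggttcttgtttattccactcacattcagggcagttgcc
The P2rx4 window has 57.2% G and C and 13 CpG dinucleotides, and the P2rx7 window shown 51.7% and 4. A further P2rx7 window of 250 bases, at chr5:122650133-122650382, is not shown and held no match to the core either.

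After corn oil P2rx7 had 18.6, 8.73, 4.60 and 8.40 CPM in neuronal libraries, against 71.4, 30.7, 54.2 and 108.0 CPM in non-neuronal ones. All neuronal libraries were below all non-neuronal ones. The log2 fold change was -2.63 (SE 0.53, 95% interval -3.77 to -1.48, adjusted p = 0.0025), a level 6.18-fold lower in neuronal nuclei. The call held in all 16 alternatives run, with log2 fold changes of -3.06 to -2.25 and adjusted p-values up to 0.0129. After agonist P2rx7 had 20.7, 14.0, 21.6 and 14.99 CPM in neuronal libraries, against 46.8, 86.4, 13.3 and 42.4 CPM in non-neuronal ones. These groups overlapped, since non-neuronal library 3 lay below every neuronal one. Here the log2 fold change was -1.46 (SE 0.775, adjusted p = 0.259), with an interval of -3.11 to 0.19. Without non-neuronal agonist library 2 it was -0.98 (adjusted p = 0.508).

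P2rx4 had 21.5, 57.8, 33.9 and 32.0 CPM in neuronal corn oil libraries, against 122.1, 94.4, 121.2 and 58.3 CPM in non-neuronal ones. The groups did not overlap, though neuronal library 2 and non-neuronal library 4 lay within 1 CPM of each other. The log2 fold change was -1.36 (SE 0.372, 95% interval -2.17 to -0.56, adjusted p = 0.0155), a level 2.57-fold lower in neuronal nuclei. The call was lost without neuronal corn oil library 1 (-1.13, adjusted p = 0.0635) or library 4 (-1.26, adjusted p = 0.054). After agonist P2rx4 had 53.7, 29.2, 29.1 and 18.3 CPM in neuronal libraries, against 55.4, 94.5, 56.4 and 59.1 CPM in non-neuronal ones. All neuronal libraries were again below all non-neuronal ones, with a log2 fold change of -1.08 (SE 0.627, 95% interval -2.41 to 0.26, adjusted p = 0.311) that was not called.

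Markers of the other cell types were, like both genes, lower in neuronal than in non-neuronal corn oil libraries. In neuronal corn oil libraries the 6 macrophage markers summed to 0.513 to 9.45 CPM, with C1qa and C1qb at 0 in all 4, against 196.0 to 257.2 CPM in non-neuronal libraries with no marker at 0 throughout. The 4 epithelial markers summed to 9.45 to 80.5 CPM in neuronal corn oil libraries, against 1503 to 14080 CPM in non-neuronal ones. The 5 enteric glial markers summed to 6.67 to 23.9 CPM in neuronal and 80.8 to 132.5 CPM in non-neuronal corn oil libraries. Within the non-neuronal corn oil group the markers did not follow both genes. Library 4 had the most P2rx7 (108.0 CPM) and the least P2rx4 (58.3 CPM) of that group. It had the lowest macrophage and epithelial sums and the highest smooth muscle sum (11940 CPM) and PDGFRA-positive cell and fibroblast sum (1163 CPM). Among non-neuronal agonist libraries, library 2 had the highest macrophage sum (636.5 CPM) and the most P2rx4 (94.5 CPM) and P2rx7 (86.4 CPM). Library 3 of that group had the next highest macrophage sum (280.7 CPM) and the least P2rx7 (13.3 CPM). The P2rx7 level that remained in neuronal corn oil libraries, 4.60 to 18.6 CPM, was above the floor of 3 counts in each of them. The part of these cells in the P2rx4 and P2rx7 differences was not tested.

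**Figure D3:**
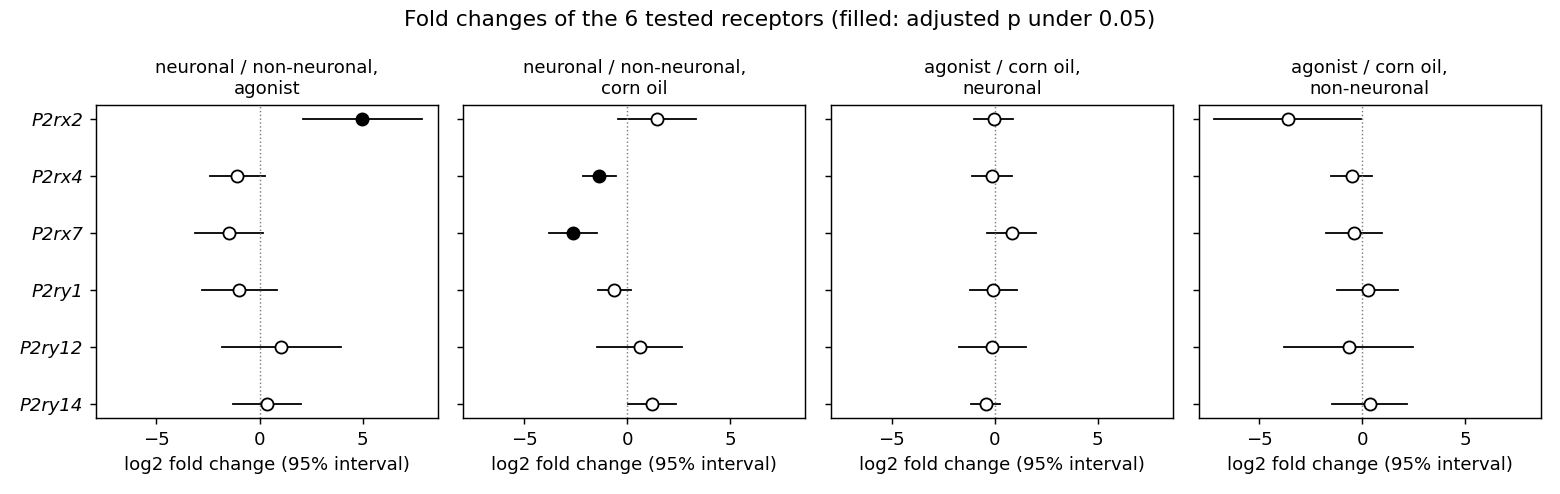
Log2 fold change with its 95% interval for the 6 receptors tested, in 4 comparisons (x axis, log2 scale); filled points have an adjusted p under 0.05. P2rx2 is called after agonist and P2rx4 and P2rx7 after corn oil between the populations, and no receptor is called between agonist and corn oil.

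P2ry1 is the ADP receptor that couples to Gq and mediates purinergic relaxation of gut muscle, where PDGFRA-positive interstitial cells carry it. It lies on chromosome 3 from 61002795 to 61008982 on the plus strand (GRCm38). After agonist it had 31.0, 56.8, 6.49 and 33.6 CPM in neuronal libraries, against 16.2, 16.7, 153.1 and 68.6 CPM in non-neuronal ones. The groups overlapped and the log2 fold change was -0.98 (SE 0.85, 95% interval -2.79 to 0.84, adjusted p = 0.531). Without non-neuronal library 3, the highest, it was -0.12 (adjusted p = 0.955). Corn oil libraries had 31.0, 31.3, 33.9 and 38.1 CPM of P2ry1 in neuronal nuclei, against 79.1, 34.5, 42.0 and 62.1 CPM in non-neuronal nuclei. The neuronal values were close together and overlapped the lower end of the non-neuronal ones, with a log2 fold change of -0.61 (SE 0.366, 95% interval -1.40 to 0.17, adjusted p = 0.256).

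The non-neuronal agonist library with the most P2ry1 also had the highest sum of the 4 markers of PDGFRA-positive cells and fibroblasts. That sum was 325.8, 293.5, 904.5 and 685.6 CPM in non-neuronal agonist libraries 1 to 4, in the same 2 low and 2 high libraries as P2ry1. In non-neuronal corn oil libraries it was 570.8, 362.0, 214.7 and 1163 CPM, again in the same 2 low and 2 high libraries as P2ry1. The highest library there was not the one with the most P2ry1. In neuronal libraries the marker sum was 5.80 to 13.1 CPM after agonist and 8.40 to 40.7 CPM after corn oil, while P2ry1 was at 6.49 to 56.8 CPM and 31.0 to 38.1 CPM. The interstitial cell and endothelial marker sums split both non-neuronal groups into the same 2 low and 2 high libraries. These sums were also highest in non-neuronal agonist library 3, at 265.3 and 312.5 CPM. The part of any of these cell types in the P2ry1 values was not tested.

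P2ry1 shares 992 exon bases with Gm37035, an antisense gene on the minus strand, and the sources used here do not give the strand setting of the counting, so their reads cannot be told apart there. Gm37035 had 15.2, 10.8, 10.9 and 18.4 CPM in neuronal corn oil libraries, against 0.295, 0.750, 0.596 and 3.62 CPM in non-neuronal ones. It was higher in neuronal nuclei after corn oil, with a log2 fold change of 3.41 (SE 0.882, adjusted p = 0.0116), opposite in sign to that of P2ry1. The call was lost with all 4 groups in 1 fit (3.33, adjusted p = 0.132), and without non-neuronal corn oil library 4 the log2 fold change was 4.70. After agonist Gm37035 had a log2 fold change of 2.36 (SE 1.63, adjusted p = 0.409) and was not called. The 250 bases before the RefSeq start of P2ry1, which lies slightly upstream of the annotated start given above, are wholly in the exon of Gm37035. They are shown because, of the receptors' windows, this one holds the AhR core motif more than once, marked in capitals (RefSeq, GRCm38.p6, plus strand, chr3:61002535-61002784).
P2ry1: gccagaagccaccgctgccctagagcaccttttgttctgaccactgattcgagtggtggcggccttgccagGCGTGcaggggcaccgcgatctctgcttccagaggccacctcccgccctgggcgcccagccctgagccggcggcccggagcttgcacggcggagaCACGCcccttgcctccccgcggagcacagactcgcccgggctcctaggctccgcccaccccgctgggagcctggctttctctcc
The core occurs there once on each strand. This window has 70.8% G and C and 20 CpG dinucleotides, the most of the receptors' windows. Windows were found for 7 of the receptors, and 6 windows kept all 250 bases once cut at the receptor's own exons. Of these 6 only the P2ry1 window held GCGTG or CACGC, where 28.2% of all 32851 mouse windows of that length did. The mouse windows were not matched to it for G and C content. A P2ry14 window cut to 124 bases held a single match. No sequence was found for P2rx2, P2rx3 and P2rx5. A match is a run of letters and not a binding site.

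P2ry14, the receptor for UDP-glucose, and P2ry12, the Gi-coupled ADP receptor known from platelets and microglia, lie within the span of another gene on chromosome 3. P2ry14 spans 59113855 to 59153618 and P2ry12 59216272 to 59262871, both on the minus strand inside Med12l, which spans 59005825 to 59318682 on the plus strand (GRCm38). P2ry12 shares 9 exon bases with Med12l and P2ry14 shares none, and the rest of their exons lie in Med12l introns. Without a known strand setting, reads of unspliced Med12l RNA over those exons cannot be told apart from reads of the receptors. Gpr171 and P2ry13 lie in the same span on the minus strand.

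P2ry14 had 96.9, 77.3, 78.1 and 117.6 CPM in neuronal corn oil libraries, against 41.6, 13.1, 15.8 and 98.9 CPM in non-neuronal ones. The groups overlapped only through non-neuronal library 4. P2ry14 had a log2 fold change of 1.20 (SE 0.541, 95% interval 0.034 to 2.37, adjusted p = 0.128), and without that library it was 2.08 (adjusted p = 0.00323). After agonist P2ry14 had 45.9, 64.7, 55.6 and 106.6 CPM in neuronal libraries, against 3.77, 112.5, 45.9 and 45.9 CPM in non-neuronal ones. Non-neuronal library 2 was the highest of all 8 and library 1 the lowest. This time the log2 fold change was 0.36 (SE 0.779, 95% interval -1.30 to 2.02, adjusted p = 0.831). It was 1.07 without non-neuronal agonist library 2, -0.046 without library 1 and 0.082 without neuronal agonist library 4.

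P2ry12 was a low-count gene, with 148 counts over the 4 neuronal agonist libraries and 59 over the non-neuronal ones. Its level was 1.26, 6.80, 12.98 and 17.2 CPM in neuronal agonist libraries, against 10.9, 0, 1.04 and 6.02 CPM in non-neuronal ones. Its log2 fold change was 1.06 (SE 1.35, 95% interval -1.81 to 3.93, adjusted p = 0.689). It was 1.95 without non-neuronal agonist library 1, and 0.64, 0.63 and 0.70 without neuronal library 4 and non-neuronal libraries 2 and 3. After corn oil P2ry12 had 14.7, 4.62, 9.19 and 13.1 CPM in neuronal libraries, against 1.77, 23.2, 0.893 and 2.85 CPM in non-neuronal ones. Non-neuronal library 2 was the highest of the 8, and the other 3 lay below every neuronal library. P2ry12 then had a log2 fold change of 0.61 (SE 0.956, 95% interval -1.46 to 2.67, adjusted p = 0.702), and without non-neuronal library 2 it was 2.54 (adjusted p = 0.0467). Leaving out non-neuronal library 1, 3 or 4 instead gave 0.30, 0.29 and 0.37.

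Med12l, which encodes a Mediator complex subunit, was higher in neuronal nuclei than in non-neuronal ones. It had 155.6, 143.3, 189.0 and 166.8 CPM in neuronal agonist libraries, against 3.39, 41.9, 67.3 and 8.57 CPM in non-neuronal ones (log2 fold change 2.43, SE 0.745, adjusted p = 0.0418). That call was lost when any neuronal agonist library or non-neuronal agonist library 1, 2 or 4 was left out (2.02 to 2.51 on the log2 scale, adjusted p up to 0.0903). Without non-neuronal agonist library 3 it was 3.13 (adjusted p = 0.0191). After corn oil Med12l had 112.1, 108.1, 133.7 and 119.1 CPM in neuronal libraries, against 19.2, 46.1, 16.1 and 35.0 CPM in non-neuronal ones (2.10, SE 0.371, adjusted p = 0.00105). Per kb of exon, neuronal corn oil libraries averaged 9.27 ± 0.885 CPM for Med12l, 8.36 ± 1.72 for P2ry14, 4.09 ± 1.77 for P2ry12 and 2.46 ± 0.536 for P2ry13. Non-neuronal corn oil libraries averaged 2.28 ± 1.1 CPM per kb for Med12l, 3.83 ± 3.60 for P2ry14, 2.82 ± 4.21 for P2ry12 and 5.52 ± 9.38 for P2ry13. Gpr171 averaged 11.69 ± 2.745 CPM per kb in neuronal and 4.408 ± 2.456 in non-neuronal corn oil libraries. Its log2 fold change there was 1.48 (SE 0.601, adjusted p = 0.0906), which was not called. P2ry14 exceeded Med12l per kb in non-neuronal agonist libraries 1, 2 and 4 and non-neuronal corn oil libraries 1, 3 and 4. It also did so in neuronal corn oil library 4, and lay below Med12l in all other libraries. In non-neuronal agonist library 2 P2ry14 was at 10.2 and Med12l at 3.28 CPM per kb. The part of Med12l reads in the P2ry12 and P2ry14 values was not tested.

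**Figure D4:**
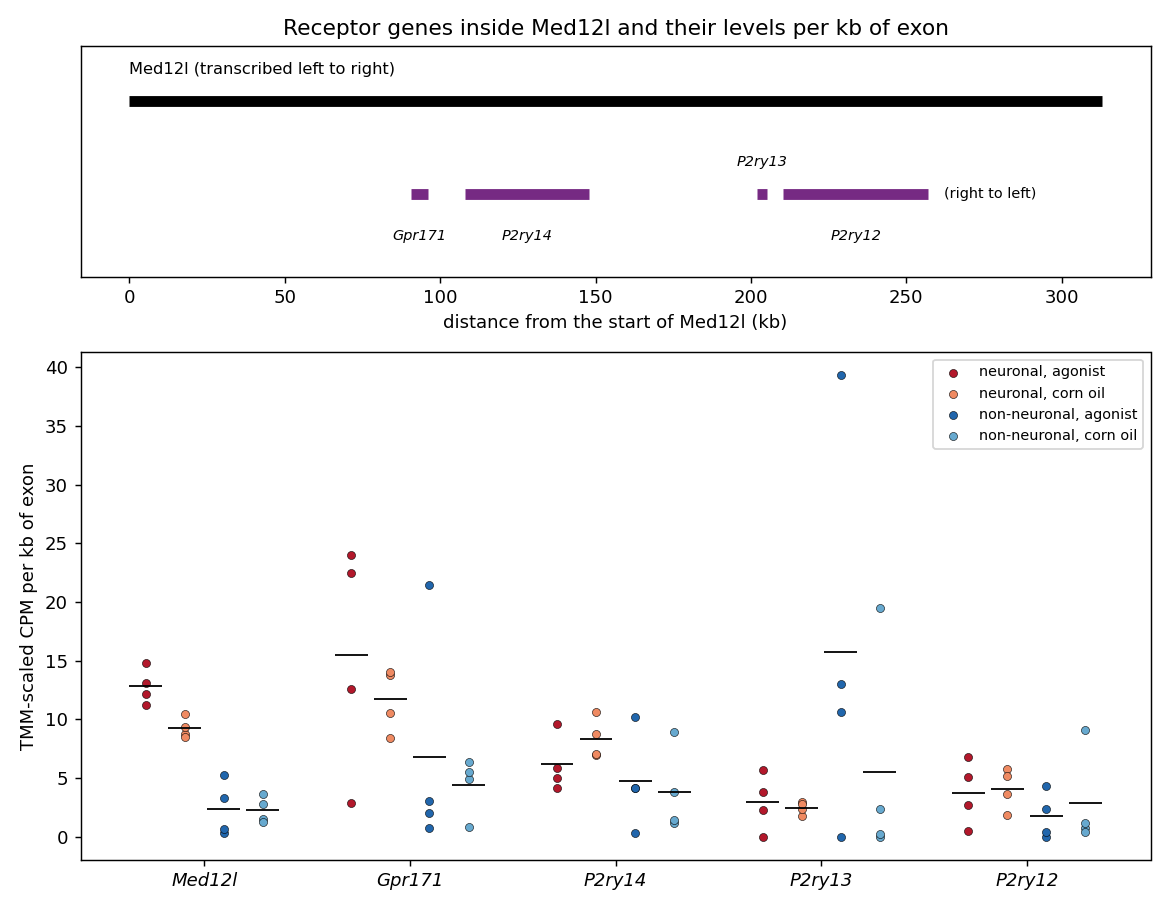
Top, positions of 4 receptor genes within Med12l (kb from its start). Bottom, TMM-scaled CPM per kb of exon for each gene in the 16 libraries, with neuronal groups left of non-neuronal ones and means of 4 libraries as bars. Med12l is higher in all neuronal libraries than in all non-neuronal ones, while P2ry14 and P2ry12 overlap between the populations.

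The remaining P2X genes were close to the limit of detection or rested on single libraries. P2rx3 is the sensory neuron subunit that pairs with P2X2 (chromosome 2, 84998583 to 85037462, minus strand). It had 0, 133, 3 and 4 counts in neuronal agonist libraries 1 to 4, and 1, 0, 0 and 9 in the neuronal corn oil libraries. It had 0, 0, 0 and 1 counts in non-neuronal agonist libraries, and 0, 5, 1 and 0 in non-neuronal corn oil libraries. Only neuronal agonist library 2 was far above the floor. P2rx3 shares 51 exon bases with Ssrp1 on the other strand, which had 31.6 CPM in that library, its highest in the group.

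P2rx1 is the fast-desensitizing channel of smooth muscle (chromosome 11, 72999103 to 73015200, plus strand). It had 0, 0, 1 and 0 counts in neuronal agonist and 0 in all 4 neuronal corn oil libraries. In non-neuronal agonist libraries it had 0, 0, 94 and 0 counts, and in non-neuronal corn oil libraries 0, 31, 12 and 1. With the filter on low counts left out, P2rx1 was called lower in neuronal nuclei after corn oil (adjusted p = 0.0227), where all 4 neuronal libraries were at 0, and was not called after agonist (adjusted p = 0.124). The library with 94 counts had the highest smooth muscle marker sum of its group, 6694 CPM, but the corn oil library with 31 counts did not (4113 CPM, against 11940 CPM in library 4 with 1 count).

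P2rx5 (chromosome 11, 73160421 to 73172685, plus strand) had no more than 5 counts in any library and 12 in all 16. P2rx6, a subunit that rarely forms channels by itself (chromosome 16, 17561885 to 17577800, plus strand), had 1 to 10.2 counts in each neuronal agonist and 6 to 8 in each neuronal corn oil library. It had 9, 0, 0 and 0 counts in non-neuronal agonist libraries and 1, 2, 44 and 0 in non-neuronal corn oil libraries. The neuronal corn oil libraries were even and the non-neuronal ones rested on library 3. P2rx6 shares 554 exon bases with Slc7a4 on the other strand, which had 5.77 to 17.4 CPM in neuronal corn oil and 1.12 to 13.7 CPM in non-neuronal corn oil libraries. A P2rx7 exon contains the microRNA gene Mir8115, which had 2.14 counts in 1 library and none in the others.

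The agonist response was not called for any of the 6 receptors in either population. In neuronal nuclei none of the 14182 genes tested was called (0%) by edgeR, with 711 at an unadjusted p under 0.05 and 9 called by DESeq2. In non-neuronal nuclei 2 of 14846 genes were called (0.0135%). No receptor had agonist and corn oil libraries that did not overlap, which held for 3.72% of genes in neuronal and 4.09% in non-neuronal nuclei. The values by library are those given above. In neuronal nuclei the interval of the agonist over corn oil ratio was 0.502 to 1.85-fold for P2rx2, 0.458 to 1.77-fold for P2rx4, 0.770 to 4.06-fold for P2rx7, 0.431 to 2.12-fold for P2ry1, 0.297 to 2.83-fold for P2ry12 and 0.454 to 1.20-fold for P2ry14. The log2 fold changes lay between -0.44 for P2ry14 and 0.82 for P2rx7 (adjusted p = 0.912 for both).

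In non-neuronal nuclei P2rx2 had the widest agonist response, with 0, 0.450, 4.70 and 0 CPM after agonist, against 2.66, 11.2, 0.893 and 52.3 CPM after corn oil. The groups overlapped and both were low apart from corn oil library 4. The log2 fold change was -3.62 (SE 1.68, unadjusted p = 0.0474, adjusted p = 0.954). It was -1.88 without corn oil library 4 and -6.67 without agonist library 3. The intervals of the other ratios were 0.348 to 1.39-fold for P2rx4, 0.292 to 1.92-fold for P2rx7, 0.426 to 3.37-fold for P2ry1, 0.0724 to 5.48-fold for P2ry12 and 0.362 to 4.56-fold for P2ry14.

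The difference of the agonist response, neuronal minus non-neuronal, was tested over all 16 libraries. None of 18566 genes was called (0%) by edgeR, with 1484 at an unadjusted p under 0.05 and 103 called by DESeq2. Among the receptors P2rx2 differed by 3.56 on the log2 scale (SE 1.51, 95% interval 0.44 to 6.67, unadjusted p = 0.027, adjusted p = 0.572). Without non-neuronal corn oil library 4 it was 1.70, and without non-neuronal agonist library 3 it was 6.65. P2rx7 followed with 1.31 (SE 0.869, 95% interval -0.49 to 3.11, adjusted p = 0.749). The other 4 lay between -0.73 for P2ry14 and 0.54 for P2ry12.

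Genes that release, sense or clear nucleotides alongside these receptors were compared between the populations in 5 lists. Of 5 other P2Y receptors, 2 were tested after agonist and none was called, where 13.6% of all genes were, and 3 were tested after corn oil and 1 was called, where 25.4% of all genes were. P2ry6, the UDP receptor, had 25.5, 29.3, 32.2 and 20.7 CPM in neuronal corn oil libraries, against 15.6, 7.87, 5.36 and 6.21 CPM in non-neuronal ones. The groups did not overlap, and P2ry6 was higher in neuronal nuclei (log2 fold change 1.70, SE 0.531, adjusted p = 0.0314). That call was lost without any 1 of the 4 neuronal corn oil libraries or non-neuronal corn oil library 2 or 3 (1.56 to 1.85 on the log2 scale, adjusted p up to 0.0973), and also in 3 other alternatives. After agonist its log2 fold change was 1.48 (SE 1.21, adjusted p = 0.497).

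Among ectonucleotidases, 6 of 8 were tested. After agonist 1 was higher and 4 were lower in neuronal nuclei, and after corn oil 1 was higher and 3 were lower. Over all genes 13.6% were called after agonist, 6.97% being lower, and 25.4% after corn oil, 13.5% being lower. Median log2 fold changes of the list were -4.77 after agonist and -2.28 after corn oil, against -0.154 and -0.113 over all genes tested. Entpd3, which removes phosphates from ATP and ADP, had 134.9, 100.9, 123.1 and 90.5 CPM in neuronal agonist libraries, against 0.377, 0, 7.83 and 9.50 CPM in non-neuronal ones. After corn oil Entpd3 had 87.4, 113.5, 110.8 and 99.5 CPM in neuronal libraries, against 2.95, 3.37, 2.68 and 5.95 CPM in non-neuronal ones. The populations were far apart under both treatments, with log2 fold changes of 4.60 after agonist (SE 1.03, adjusted p = 0.00784) and 4.84 after corn oil (SE 0.402, adjusted p = 5.61e-06). Both calls held in all alternatives run, 17 after agonist and 16 after corn oil. The agonist fold change was 5.28 without non-neuronal agonist library 4, 3.78 without the 2 libraries above 30% mitochondrial counts and 5.53 with the replicate block.

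Entpd1, Entpd8 and Nt5e were lower in neuronal nuclei under both treatments, and Enpp3 after agonist. Entpd8, which hydrolyses ATP at epithelial surfaces, averaged 0.110 ± 0.219 CPM in neuronal agonist and 30.5 ± 10.8 CPM in non-neuronal agonist libraries (log2 fold change -7.66, SE 1.41, adjusted p = 0.00223). After corn oil Entpd8 averaged 0.665 ± 1.33 CPM in neuronal libraries, against 51.0 ± 40.0 CPM in non-neuronal libraries (-6.05, SE 1.21, adjusted p = 0.0024), and neuronal library 3 held all 11 counts of its group. The call held without that library, where no neuronal corn oil count is left (adjusted p = 0.00131), and after agonist without neuronal library 2, which held the only 2 neuronal counts (adjusted p = 0.00638). Nt5e, which turns AMP into adenosine, averaged 4.20 ± 4.64 CPM in neuronal agonist and 77.4 ± 23.6 CPM in non-neuronal agonist libraries (-4.19, SE 1.06, adjusted p = 0.0156). After corn oil Nt5e averaged 9.80 ± 1.999 CPM in neuronal libraries, against 34.7 ± 10.6 CPM in non-neuronal libraries (-1.74, SE 0.466, adjusted p = 0.0142). Entpd1, which removes phosphates from ATP and ADP on vascular and immune cells, averaged 1.24 ± 1.87 CPM in neuronal agonist and 51.5 ± 68.2 CPM in non-neuronal agonist libraries (-5.35, SE 1.48, adjusted p = 0.0245). Its agonist values fall outside the rule for named genes and were added with the values known. After corn oil Entpd1 averaged 1.01 ± 0.701 CPM in neuronal libraries, against 52.9 ± 26.3 CPM in non-neuronal libraries (-5.58, SE 0.709, adjusted p = 0.000106). Enpp3, a phosphodiesterase, averaged 1.74 ± 1.94 CPM in neuronal agonist and 242 ± 391 CPM in non-neuronal agonist libraries (-7.13, SE 1.72, adjusted p = 0.019), with 824.0 CPM in library 1. Without that library the log2 fold change of Enpp3 was -4.78 (adjusted p = 0.0391), and without neuronal agonist library 4 it was -8.08.

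Some of these calls rested on single libraries. The agonist call of Nt5e was lost without neuronal agonist library 2 (adjusted p = 0.0531) or 3 (adjusted p = 0.0502), and its log2 fold change was -5.24 without library 4. Its corn oil call was lost without neuronal corn oil library 1 (adjusted p = 0.0509) or 2 (adjusted p = 0.0524), and with all 4 groups in 1 fit (adjusted p = 0.115). Without neuronal agonist library 2 the agonist fold change of Entpd1 was -7.15. The agonist call of Entpd1 was lost without neuronal agonist library 1, 3 or 4 or non-neuronal agonist library 2 (-5.21 to -3.82 on the log2 scale, adjusted p up to 0.128), and without the 2 libraries above 30% mitochondrial counts (-3.60, adjusted p = 0.211). The call of Enpp3 was lost without neuronal agonist library 1, 2 or 4 (adjusted p = 0.0577, 0.0796 and 0.0561), without a filter on low counts (adjusted p = 0.120) and with the replicate block (adjusted p = 0.0962).

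**Figure D5:**
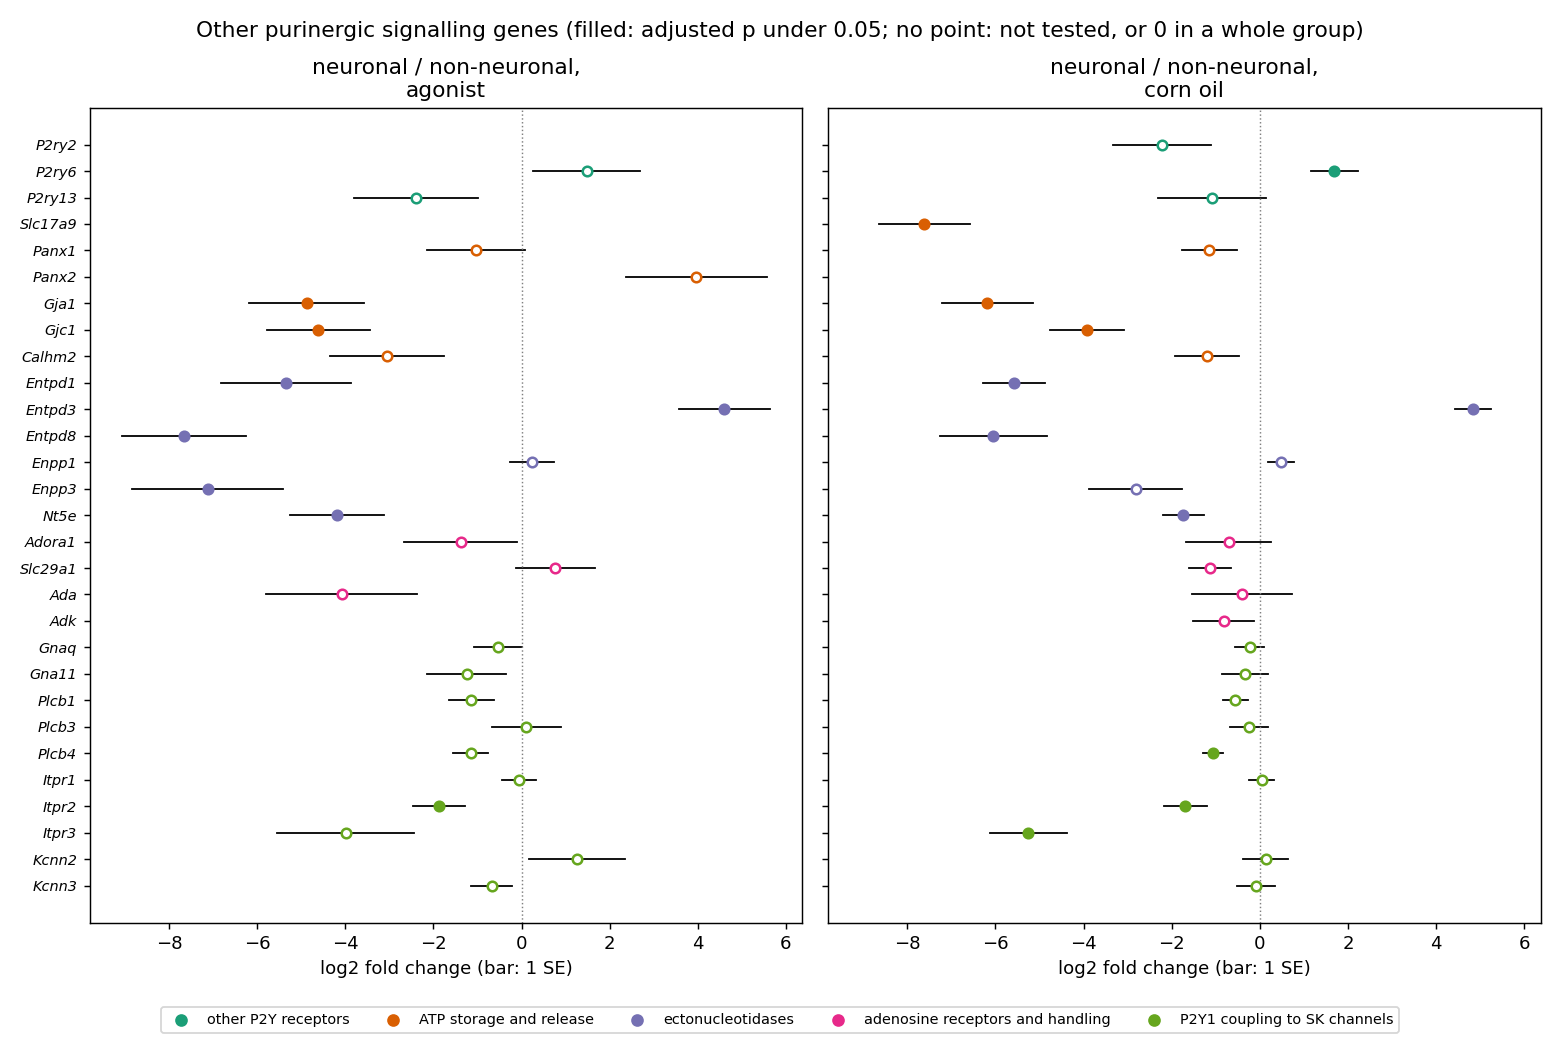
Log2 fold change, neuronal over non-neuronal, with bars of 1 SE, for the tested genes of 5 lists after agonist (left) and corn oil (right); filled points have an adjusted p under 0.05. Entpd3 lies near 4.6 and 4.8, and the other called ectonucleotidases and connexins lie below 0; Panx2 is not drawn for corn oil because it is at 0 in all non-neuronal libraries.

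Of 6 genes that store or release ATP, 5 were tested after agonist with 2 lower in neuronal nuclei, and 6 after corn oil with 1 higher and 3 lower. The shares called over all genes were 13.6% and 25.4%. Gja1, a connexin whose hemichannels pass ATP, averaged 1.04 ± 1.19 CPM in neuronal agonist and 31.3 ± 21.0 CPM in non-neuronal agonist libraries (log2 fold change -4.88, SE 1.296, adjusted p = 0.0201). After corn oil Gja1 averaged 0.262 ± 0.371 CPM in neuronal libraries, against 22.4 ± 11.8 CPM in non-neuronal libraries (-6.19, SE 1.03, adjusted p = 0.000681). Gjc1, a smooth muscle connexin, had log2 fold changes of -4.61 after agonist (SE 1.17, adjusted p = 0.0155) and -3.92 after corn oil (SE 0.849, adjusted p = 0.00393). The agonist call of Gja1 was lost without neuronal agonist library 2 (adjusted p = 0.0655) or 3 (adjusted p = 0.0669), and that of Gjc1 without library 3 (adjusted p = 0.0587). Without neuronal library 4 of the treatment concerned the log2 fold change was -5.95 after agonist and -7.45 after corn oil for Gja1, and -4.61 after corn oil for Gjc1. Panx2, a pannexin, had 14.2, 12.6, 12.1 and 11.0 CPM in neuronal corn oil libraries and 0 counts in all 4 non-neuronal corn oil libraries, and was called higher in neuronal nuclei (adjusted p = 0.000633). After agonist Panx2 was not called (log2 fold change 3.97, SE 1.61, adjusted p = 0.126).

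Slc17a9, the vesicular nucleotide transporter that loads ATP into vesicles, was lower in neuronal nuclei after corn oil. It had 0, 0, 0 and 0.525 CPM in neuronal corn oil libraries, against 25.7, 33.7, 63.4 and 12.4 CPM in non-neuronal ones (log2 fold change -7.61, SE 1.03, adjusted p = 0.000163). All but 1 of the neuronal corn oil libraries had no count, and the call held without that one (adjusted p = 0.000526). It did not pass the filter after agonist, where it had 0, 0.878, 0.260 and 1.11 CPM in neuronal libraries, against 4.53, 0.450, 7.04 and 39.4 CPM in non-neuronal ones. The epithelial marker sum, like those of the other non-neuronal cell types given above, was higher in the non-neuronal libraries as well. The part of these cells in the Slc17a9 difference was not tested.

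Of 13 genes that link P2Y1 to SK channels, 10 were tested, and 1 was lower after agonist and 3 after corn oil in neuronal nuclei. These counts are near the shares of all genes called, 13.6% and 25.4%. The inositol trisphosphate receptor genes Itpr2 and Itpr3 release calcium from stores, and Plcb4 encodes a phospholipase C. After corn oil Itpr3 averaged 0.633 ± 0.483 CPM in neuronal libraries, against 26.9 ± 14.1 CPM in non-neuronal libraries (log2 fold change -5.26, SE 0.867, adjusted p = 0.000662). Plcb4 averaged 150.3 ± 20.6 CPM in neuronal libraries, against 331.4 ± 78.5 CPM in non-neuronal corn oil libraries (-1.06, SE 0.227, adjusted p = 0.00366). Neither was called after agonist, with log2 fold changes of -3.99 for Itpr3 (adjusted p = 0.112) and -1.16 for Plcb4 (adjusted p = 0.0732). Itpr2 averaged 34.3 ± 14.3 CPM in neuronal agonist and 122.9 ± 61.9 CPM in non-neuronal agonist libraries (-1.88, SE 0.597, adjusted p = 0.0491), and 25.0 ± 8.94 CPM in neuronal corn oil and 85.5 ± 50.1 CPM in non-neuronal corn oil libraries (-1.69, SE 0.493, adjusted p = 0.022). The agonist call of Itpr2 was lost in 12 of 17 alternatives, among them without any 1 neuronal agonist library or non-neuronal agonist library 1 or 4 (adjusted p up to 0.136). Its corn oil call was lost without neuronal corn oil library 1, 3 or 4 or non-neuronal corn oil library 2 or 3 (adjusted p up to 0.0774). None of the tested genes of adenosine receptors and handling was called, 3 of 8 being tested after agonist and 4 of 8 after corn oil. No gene of the 5 lists was called between agonist and corn oil in either population.

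The genes whose levels followed those of a receptor most closely over the 16 libraries were found for the 3 receptors with the most counts, among 18660 other genes, by Pearson's r of log2 CPM. For P2ry14 they were Parm1 (r = 0.951), Gm26930 (0.931) and D130019J16Rik (0.926). For P2rx4 they were Esrp2 (0.913), Uap1 (0.905) and Gm36266 (0.901), and for P2ry1 Diaph2 (0.86), Mb21d2 (0.837) and Gm26348 (0.833). The points share 2 populations that differ in many genes, and the values are a description without a test.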

How the data were processed

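Nuclear RNA of sorted colonic nuclei was sequenced as 75 bp single-end reads, per the labels' protocols. The deposited table holds an expected count per Ensembl gene and library, made by the authors with RSEM 1.3.0, with STAR 2.5.2 and DESeq2 1.10.1 also named, on GRCm38, per the submitters' processing notes. The sources used here give neither annotation release nor strand setting. Expected counts were rounded, filtered with filterByExpr (minimum count 10, total 15), scaled by TMM and tested with edgeR 4.0.16 under R 4.3.3 (robust quasi-likelihood F-test, two-sided), which was tested on simulated data. P-values were Benjamini-Hochberg adjusted over all genes tested in a comparison. DESeq2 1.42.0, other scalings and filters, 1 fit of all 4 groups, a replicate block and leaving out libraries were alternatives. Levels are CPM with TMM scaling over 16 libraries. Symbols, positions and exon lengths come from GENCODE M21. The members and lists were chosen with earlier results of these data known. All 10 members are named, and in each other list the genes called, or the 4 with the smallest p where more were called. A gene of the neuronal marker list is not reported here, and the marker sums leave it out. Groups follow the labels, although the column headers name a project on AhR knockouts. No replicate pair agreed within sampling noise (chi-square per degree of freedom at least 8.78). Intervals come from the same fits as the p-values and cover the spread between these libraries. Floors cover counting error only.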

Additional observations from a re-analysis of the deposited data

Results flagged for a closer look

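Single libraries lay far from the other 3 of their group for several receptors, by the gap of the highest library divided by the range of the group (Dixon's test at 95%). Of 38 groups examined 13 were flagged. Chance flags about 1 in 20 groups of normally distributed values, but 6 of these groups have counts in a single library and are flagged whatever their level, so the number of flags is not read against chance. Groups with 1 to 10 counts over all 4 libraries gave 7 of these: P2rx1 in neuronal agonist (0.260 CPM), P2rx3 in neuronal corn oil (2.36 CPM), in non-neuronal agonist (0.232 CPM) and in non-neuronal corn oil (1.87 CPM), P2rx5 in neuronal corn oil (0.787 CPM) and non-neuronal corn oil (1.29 CPM), and P2rx6 in non-neuronal agonist (3.39 CPM).

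The others rested on more counts. P2rx1 reached 24.5 CPM in non-neuronal agonist library 3 and was at 0 in the other 3. P2rx2 was at 4.70 CPM in the same library, the highest of its group. P2rx3 was at 29.2 CPM in neuronal agonist library 2, with at most 1.11 CPM in the other neuronal agonist libraries. P2rx4 was at 94.5 CPM in non-neuronal agonist library 2. P2rx6 was at 13.1 CPM in non-neuronal corn oil library 3, and P2ry12 at 23.2 CPM in non-neuronal corn oil library 2. The libraries differ between receptors, and the cause was not tested.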

How the results depend on the processing

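The calls of P2rx7 after corn oil held in all 16 alternatives, and those of P2rx2 after agonist and P2rx4 after corn oil in 15 of 17 and 14 of 16. The cause of the changes below was not tested. Without a filter on low counts 3324 genes were called between populations after agonist, 152 and 88 between agonist and corn oil in neuronal and non-neuronal nuclei, and 110 for the difference of the response. After corn oil 5 of 10 receptors were then called between populations, where 13.8% of 40042 genes were: P2rx4, P2rx7, P2rx1 (adjusted p = 0.0227), P2rx2 (adjusted p = 0.0311) and P2ry14 (adjusted p = 0.01). DESeq2 called 2937, 9, 35 and 103 genes in those comparisons. With all 4 groups in 1 fit 4590 genes were called between populations after agonist and 11 for the non-neuronal response. Without the 2 libraries above 30% mitochondrial counts no receptor (0) was called after agonist, 1 gene for the non-neuronal response and 7 for the difference. With library size alone 0 genes were called for the non-neuronal response, the median over all genes was -0.28 there, against 0.128 with TMM, and P2ry1 (-0.019) and P2ry14 (-0.12) turned sign.

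Leaving out 1 library at a time gave 0 to 1 receptors called after agonist, with 1553 to 2064 genes called in all, and 1 to 4 after corn oil, with 3399 to 4735 genes. It gave 0 to 2 genes for the non-neuronal response and 0 to 9 for the difference. It turned the sign of small fold changes without a call. In neuronal nuclei agonist over corn oil ranged from -0.31 to 0.20 for P2rx2, -0.51 to 0.16 for P2rx4, -0.50 to 0.27 for P2ry1 and -0.57 to 0.24 for P2ry12. In non-neuronal nuclei it ranged from -0.66 to 0.58 for P2ry1, -1.58 to 1.33 for P2ry12 and -0.36 to 1.21 for P2ry14. The difference ranged from -0.0060 to 0.73 for P2rx4, -0.83 to 0.52 for P2ry1 and -1.40 to 1.45 for P2ry12, and neuronal over non-neuronal after agonist from -0.046 to 1.07 for P2ry14.

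Deviations from the group means correlated weakly between libraries with the same replicate number. Correlations were -0.0103 to 0.0726 between neuronal and non-neuronal libraries, and -0.105 to 0.179 between agonist and corn oil libraries. The numbers were not taken to pair libraries, and whether such libraries share mice was not tested. With the replicate block 1 receptor was called after agonist and 3 after corn oil, where P2ry14 reached 1.65 (adjusted p = 0.0138), and for the non-neuronal response P2ry1 was -0.30 and P2ry12 0.21. P2rx1, P2rx3, P2rx5 and P2rx6 did not pass the filter on low counts in any comparison at this depth.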
